A study of Mus musculus with 6 samples.

Results

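The genes described here are 10 genes that report Wnt/beta-catenin signalling in the liver lobule, of 55357 genes counted in the livers of esculetin-treated mice. The 10 genes are Rnf43, Znrf3, Axin2, Lgr5, Tbx3, Glul, Oat, Slc1a2, Rhbg and Cyp2e1, and all 10 had enough counts to be tested. They were chosen by name, as Wnt targets and genes of pericentral hepatocytes, by someone who knew that Rnf43 was among the clearer falls in the comparison of esculetin with vehicle. Their values in that comparison are therefore given as a description, without p-values. Male C57BL6/J mice of wild-type genotype, 8 to 9 weeks old, received vehicle or esculetin, a coumarin compound, once daily by oral gavage for 7 days. The vehicle was 2.5% Tween-80, which the study's methods also give as the solvent of esculetin. Both groups ate a control diet with 10% of kcal from fat for 4 days and then a high-fat diet with 60% for 3 days, so the vehicle group is not an untreated liver on chow. Each group had 3 RNA-seq libraries, each from the livers of 2 mice, and no library stands for a single animal. The labels give the dose of the esculetin libraries in conflicting ways, with 180 mg/kg/d in their titles, the number that the names of the count columns also carry, and 90 mg/kg/d under treatment, so the group is named without a dose.

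Hepatocytes around the central vein receive Wnt ligands and R-spondins from neighbouring endothelial cells, and beta-catenin then switches on a pericentral programme. Part of that programme acts back on the pathway itself. RNF43 and ZNRF3 are membrane ubiquitin ligases that remove Frizzled receptors, AXIN2 is a scaffold of the complex that degrades beta-catenin, and all 3 restrain the pathway, whereas LGR5 is an R-spondin receptor that enhances it. The other part is metabolic and includes glutamine synthesis, ammonium transport and cytochrome P450 enzymes.

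The feedback genes Rnf43 and Axin2 were lower with esculetin, at 58.5% and 54.8% of the vehicle mean, while Cyp2e1, the most abundant of the 10 genes, was at 113% with overlapping groups. The 5 regulators (Rnf43, Znrf3, Axin2, Lgr5, Tbx3) had negative log2 fold changes with a median of -0.57, but only 2 of the 5 were called, and the sign of Znrf3 (-0.045) turned when single libraries were left out. Over all genes tested, 7440 of 14433 had a negative value. Of the 5 enzymes and transporters (Glul, Oat, Slc1a2, Rhbg, Cyp2e1), 2 had a negative and 3 a positive log2 fold change, with a median of 0.18. A gene was called where the unadjusted p-value of edgeR's quasi-likelihood test was under 0.05 and the fold change over 1.5. Of the 10 genes, 2 were called, Rnf43 and Axin2, both lower. An adjusted p-value under 0.05 (Benjamini-Hochberg) was reached by 0 of the 10 genes, against 0.0416% of all genes tested. Over all 14433 genes tested, 3.13% were called, 1.76% lower and 1.37% higher. The median log2 fold change was -0.096 over the 10 genes and -0.008 over all genes tested. Vehicle and esculetin values were fully separated in 2 of the 10 genes, and in 17.4% of the 14433 genes tested.

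Total counts lay between 27957713 and 34920922 per library, with every esculetin library deeper than every vehicle library. The mitochondrial share of counts was 7.31 to 7.62% with vehicle and 6.87 to 7.26% with esculetin, also without overlap, and the part of either difference in the results was not tested. The hepatocyte markers were the most abundant of the marker lists (a sum of 77523 to 86788 over 8 genes, in CPM, which are counts divided by the TMM-normalized library size and scaled) and 0 of 8 were called (4 with a log2 fold change above 0 and 4 below). No marker of another cell type was at 0 counts in any library. Endothelial markers, the cells that make pericentral Wnt ligands, summed to 188 to 232 CPM with vehicle and 201 to 231 CPM with esculetin, with 0 of 10 called (4 above 0 and 6 below). The sums were 333 to 402 and 296 to 392 CPM for 8 stellate and fibroblast markers (2 above 0 and 6 below, with 1 called, Des, higher), 332 to 437 and 341 to 353 CPM for 8 Kupffer cell and macrophage markers (2 above 0 and 6 below, 0 called), and 39.7 to 80.8 and 30.7 to 45.9 CPM for 6 cholangiocyte markers (of 5 tested 4 above 0 and 1 below, the latter being Spp1, the 1 gene called). They were 14.9 to 16.1 and 12.4 to 14.7 CPM for 6 lymphocyte markers (of 5 tested 2 above 0 and 3 below, with 1 called, Cd79a, higher) and 127 to 155 and 114 to 178 CPM for 5 red blood cell markers (4 above 0 and 1 below, with 1 called, Hba-a2, higher). The part of these lists in the results was not tested. In whole liver, fewer cells of a type and less RNA per cell cannot be told apart.

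Rnf43 encodes the ubiquitin ligase that clears Frizzled and LRP receptors from the cell surface and is itself a Wnt target. It lies on chromosome 11 of GRCm39 from 87553548 to 87626377, on the plus strand. The vehicle libraries had 20.7, 19.7 and 15.2 CPM, and the esculetin libraries had 11.5, 10.9 and 10.1 CPM. Every esculetin library was below every vehicle library, and vehicle replicate 3 lay nearer to the highest esculetin library than to the next vehicle library. The means were 18.5 ± 2.93 and 10.8 ± 0.692 CPM (SD, n = 3), and the log2 fold change was -0.78 with a standard error of 0.13. The groups rest on 417 to 643 counts per vehicle library and 339 to 378 per esculetin library. Leaving out 1 library at a time gave log2 fold changes from -0.90 to -0.69.

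Axin2 encodes a scaffold on which beta-catenin is marked for degradation, and its transcript is a widely used readout of Wnt signalling. It lies on chromosome 11 from 108811169 to 108841609, on the plus strand. The values were 4.70, 4.91 and 3.57 CPM with vehicle and 2.08, 2.34 and 2.81 CPM with esculetin. The groups again did not overlap, and vehicle replicate 3 and esculetin replicate 3 were the closest libraries. The means were 4.39 ± 0.718 and 2.41 ± 0.367 CPM (SD, n = 3), and the log2 fold change was -0.87 with a standard error of 0.21. Axin2 was counted 98 to 160 times per vehicle library and 67 to 94 times per esculetin library, fewer than Rnf43, and its standard error was larger. Its log2 fold changes were -0.99 to -0.77 when 1 library was left out.

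**Figure D1:**
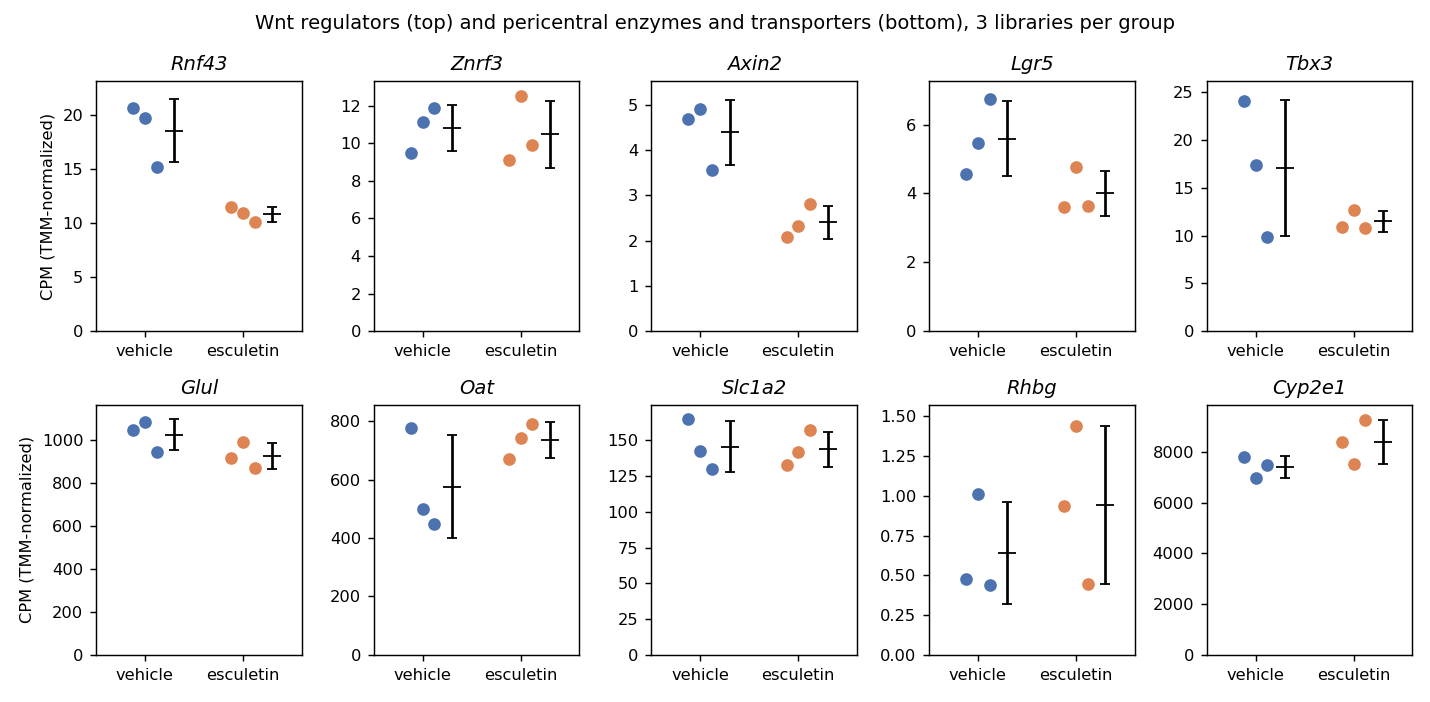
CPM (TMM-normalized, axes from 0) of the 10 genes in each library. Points are libraries, 3 with vehicle (blue) and 3 with esculetin (orange), and bars beside them are the mean ± SD. Rnf43 and Axin2 are the only panels of the 10 without overlap between groups, and the 3 Tbx3 vehicle libraries spread from 9.81 to 24.1 CPM.

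Promoter sequences are shown for these 2 genes and for Cyp2e1, because Axin2 and Cyp2e1 were the 2 of the 10 genes with a match to the TCF/LEF motif, the site through which beta-catenin acts, while Rnf43, lower like Axin2, had none. The window ran from 250 bases before to 50 bases from the start site of the GENCODE canonical transcript in GRCm39. Both strands were searched for CTTTGAT (present in 3.37% of 21770 promoters of this length), CTTTGAA (in 5.3% of them), CTTTGTT (in 5.61%) and CTTTGTA (in 3.38%). These differ in their last letters, so that no position matches more than 1 of them, and 16.4% of the promoters held at least 1. Sequences run 5′ to 3′ on the gene's strand, in lower case, with the match in capitals.
Axin2 (plus strand, chr11:108811388-108811687): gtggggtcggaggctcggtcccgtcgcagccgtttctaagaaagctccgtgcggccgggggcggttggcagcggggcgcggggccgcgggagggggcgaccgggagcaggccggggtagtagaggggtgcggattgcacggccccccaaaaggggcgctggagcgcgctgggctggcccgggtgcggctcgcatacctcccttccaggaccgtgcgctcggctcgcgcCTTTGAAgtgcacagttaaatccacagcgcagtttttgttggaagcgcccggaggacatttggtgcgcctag
Cyp2e1 (plus strand, chr7:140343402-140343701): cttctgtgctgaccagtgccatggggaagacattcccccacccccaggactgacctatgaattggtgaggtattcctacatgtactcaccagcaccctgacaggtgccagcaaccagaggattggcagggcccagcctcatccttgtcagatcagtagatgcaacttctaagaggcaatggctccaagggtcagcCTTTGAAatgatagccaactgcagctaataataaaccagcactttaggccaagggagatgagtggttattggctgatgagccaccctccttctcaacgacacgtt
Rnf43 (plus strand, chr11:87554850-87555149): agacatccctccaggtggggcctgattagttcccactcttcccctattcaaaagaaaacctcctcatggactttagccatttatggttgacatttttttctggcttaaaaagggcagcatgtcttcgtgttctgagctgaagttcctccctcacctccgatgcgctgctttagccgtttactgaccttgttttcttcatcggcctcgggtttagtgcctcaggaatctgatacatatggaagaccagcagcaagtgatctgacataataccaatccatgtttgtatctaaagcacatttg
The match begins at base -22 in Axin2 and at base -55 in Cyp2e1, counted back from the start site, and both lie on the gene's own strand. Of the 2 genes with a match, Axin2 was called and Cyp2e1 was not. The GC content of the window was 69.7% for Axin2, 51.7% for Cyp2e1 and 45.3% for Rnf43. The remaining windows, of Znrf3, Lgr5, Tbx3, Glul, Oat, Slc1a2 and Rhbg, held no such letters. A match describes the letters and not a bound site, and sites outside the window were not searched. The windows of Rnf43, Axin2, Tbx3, Glul and Oat lie inside the annotated span of their gene. The part of the span further upstream was not searched in these genes, so the lack of a match in Rnf43 holds for this window only.

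The other 3 regulators were less clear. Znrf3, the paralog of Rnf43 with the same role at the receptors, had 9.46, 11.1 and 11.9 CPM with vehicle and 9.08, 12.5 and 9.88 CPM with esculetin. The groups overlapped almost fully, and the log2 fold change was -0.045 (standard error 0.15). Without vehicle replicate 3 it was 0.027 and without esculetin replicate 1 it was 0.049, so the sign of Znrf3 rested on single libraries.

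Lgr5 marks pericentral hepatocytes next to the central vein and potentiates Wnt signals through R-spondin. The vehicle libraries had 4.56, 5.46 and 6.75 CPM and the esculetin libraries 3.61, 4.76 and 3.64 CPM. Esculetin replicate 2 was above the lowest vehicle library, and the other esculetin libraries were below all 3. The log2 fold change was -0.48 (standard error 0.20). It passed both thresholds without vehicle replicate 1 (-0.61) and without esculetin replicate 2 (-0.62), and in none of the remaining settings.

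Tbx3 encodes a T-box transcription repressor that acts downstream of beta-catenin in the liver. The vehicle values were 24.1, 17.3 and 9.81 CPM and the esculetin values 10.9, 12.7 and 10.8 CPM. Vehicle replicate 3 was below all esculetin libraries, and the other vehicle libraries were above them. The coefficient of variation was 41.8% with vehicle and 9.25% with esculetin. The log2 fold change of -0.57 (standard error 0.26) became -0.85 without vehicle replicate 3 and passed the thresholds there, and -0.24 without vehicle replicate 1. It also passed with total counts in place of TMM (-0.60). The antisense gene Tbx3os1, which overlaps 17.8% of the exon length of Tbx3, had 157 to 283 counts with vehicle and 147 to 237 with esculetin. Without a stated strand setting, reads in the shared stretch cannot be assigned to either gene.

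Glul encodes glutamine synthetase, which removes ammonia in the innermost ring of pericentral hepatocytes and is the classical marker of hepatic beta-catenin activity. It had 1046, 1086 and 947 CPM with vehicle and 917, 992 and 872 CPM with esculetin. Vehicle replicate 3 lay between the esculetin libraries, so the groups overlapped. The means were 1026 ± 71.6 and 927 ± 60.6 CPM (SD, n = 3), and the log2 fold change was -0.15 with a standard error of 0.086. Leaving out 1 library gave -0.20 to -0.10.

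Oat, ornithine aminotransferase, shares the narrow pericentral ring of Glul and links ornithine to glutamate. The vehicle values were 778, 501 and 450 CPM, of which replicate 1 stood apart from the others. With esculetin they were 672, 744 and 792 CPM, all above the lower 2 vehicle libraries. The log2 fold change was 0.35 (standard error 0.18), and without vehicle replicate 1 it was 0.63 and passed both thresholds.

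Slc1a2, a glutamate transporter of pericentral hepatocytes, had 165, 142 and 130 CPM with vehicle and 132, 141 and 157 CPM with esculetin. The esculetin range lay within the vehicle range, and the log2 fold change was -0.020 (standard error 0.10). It was 0.078 without vehicle replicate 1 and 0.036 without esculetin replicate 1.

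Rhbg, an ammonium transporter, was near the lower end of what could be tested, with 14, 33 and 12 counts with vehicle and 30, 50 and 15 with esculetin. These are 0.477, 1.01 and 0.438 CPM, and 0.933, 1.44 and 0.448 CPM. The log2 fold change of 0.54 had a standard error of 0.50, and values between 0.088 and 1.04 were obtained when 1 library was left out. Another gene of the annotation, Gm38392, shares 59.3% of the exon length of Rhbg on the same strand and had 0 counts in every library. How reads that fall in both genes were counted is not given in the sources used here, so the level of Rhbg is uncertain.

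Cyp2e1 encodes the ethanol-inducible cytochrome P450 of pericentral hepatocytes. It had 7802, 6959 and 7487 CPM with vehicle and 8390, 7522 and 9277 CPM with esculetin. Esculetin replicate 2 lay within the vehicle range and the other esculetin libraries were above it. The log2 fold change was 0.18 (standard error 0.097), with 0.10 to 0.25 when 1 library was left out.

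**Figure D2:**
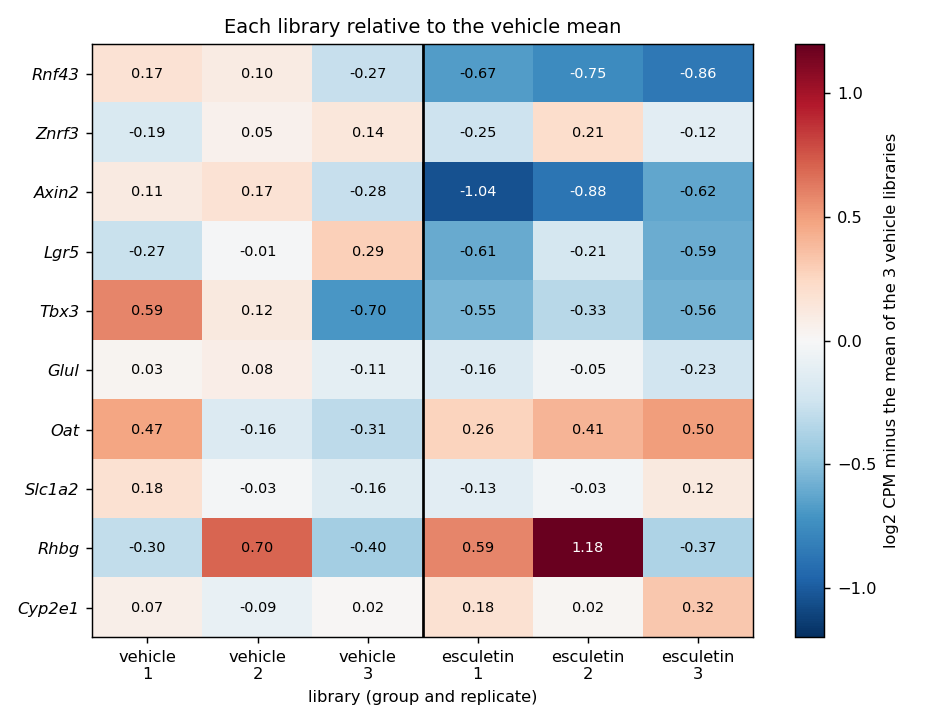
Log2 CPM (prior count 2) of each library minus the mean of the 3 vehicle libraries, for the 5 regulators (upper rows) and the 5 enzymes and transporters (lower rows); columns are libraries. In Rnf43 and Axin2 all 3 esculetin libraries lie between -1.04 and -0.62, while vehicle replicate 3 is below the vehicle mean in both and reaches -0.70 in Tbx3.

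Vehicle libraries differed among themselves in these genes. Vehicle replicate 3 was the lowest of its group in 7 of the 10 genes, Rnf43, Axin2, Tbx3, Glul, Oat, Slc1a2 and Rhbg, and the highest in Znrf3 and Lgr5. Among the esculetin libraries the lowest value was found in replicate 1 for 5 genes, replicate 3 for 4 and replicate 2 for 1. The coefficient of variation of Rnf43 was 15.8% with vehicle and 6.39% with esculetin, and that of Oat 30.6% and 8.20%. Axin2 varied to a similar degree in both, at 16.3% and 15.3%. Whether the spread differs between groups was not tested, with 3 libraries in each. Genes on the opposite strand also overlap the exons of Rnf43 (8.07% of its exon length), Lgr5 (7.3%), Glul (3.72%), Axin2 (3.02%), Slc1a2 (2.28%) and Znrf3 (0.249%), and reads in those stretches cannot be assigned to a strand here.

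Levels were compared between genes as TPM, which also divides counts by the exon length of the gene. With vehicle the order was Cyp2e1 (8840 ± 587 TPM, SD, n = 3), Glul (876 ± 86.1), Oat (187 to 343 TPM over the 3 libraries), Slc1a2 (35.1 ± 5.21), Rnf43 (9.53 ± 1.78), Tbx3 (7.04 ± 3.10), Znrf3 (4.53 ± 0.408), Axin2 (2.14 ± 0.408), Lgr5 (1.83 ± 0.301) and Rhbg (1.08 ± 0.557). The enzymes were thus far more abundant than the regulators, and the TPM of Cyp2e1 was 927 times that of Rnf43. Over the 3 vehicle libraries Rnf43 and Tbx3, Tbx3 and Znrf3, Axin2 and Lgr5, and Lgr5 and Rhbg overlapped, and the other neighbours in this order did not. With esculetin, Rnf43 had 5.45 ± 0.198 TPM and Axin2 1.15 ± 0.210 TPM (SD, n = 3). The order of the first 7 genes was the same, and Axin2 moved from eighth to the last place, with values of 0.970, 1.10 and 1.38 TPM that overlapped those of Lgr5 and those of Rhbg.

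**Figure D3:**
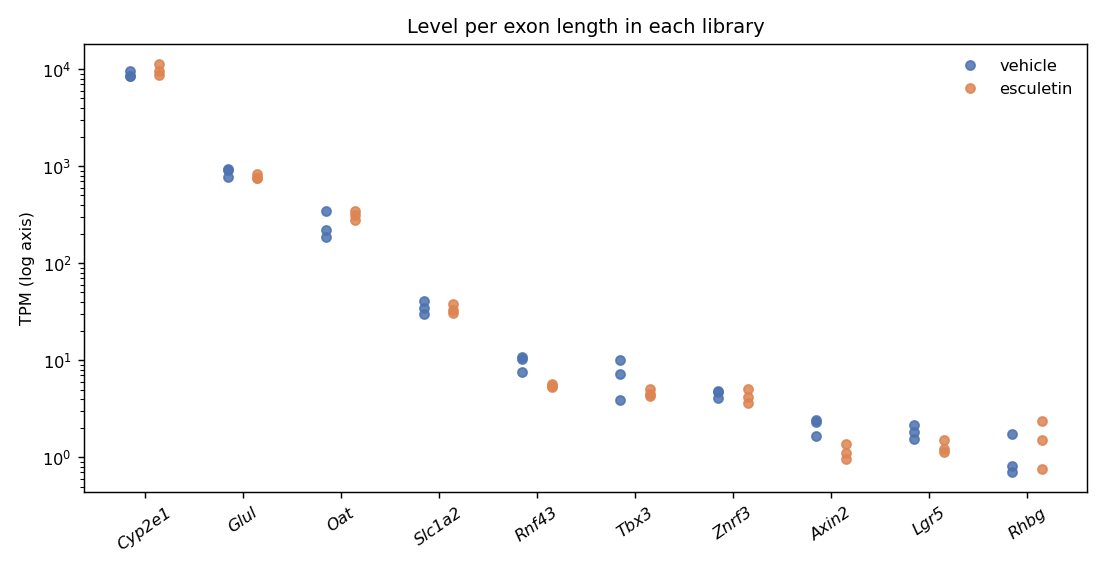
Level of each gene in TPM (log axis) in the 3 vehicle (blue) and 3 esculetin (orange) libraries, ordered by the vehicle mean. Cyp2e1 lies near 8840 TPM with vehicle, and Axin2, Lgr5 and Rhbg lie near 1 to 2 TPM.

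The wider Wnt pathway was examined with 6 lists of 100 further genes, of which 65 had enough counts to be tested. Of these, 1 passed the thresholds, Fzd6, lower with esculetin, against 3.13% of all genes. An unadjusted p-value under 0.05 was reached by 3 of the 65, all lower, against 11.9% of all genes, and an adjusted p-value under 0.05 by 0 of the 65, against 0.0416% of all genes. The median log2 fold change was -0.044, with 25 genes above and 40 below 0. The groups did not overlap in 6 of the 65, against 17.4% of all genes tested.

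Among ligands and R-spondins 11 of 25 genes were tested and 0 called. Rspo3, the R-spondin of central vein endothelium, had 4.53 ± 1.33 CPM with vehicle and 5.30 ± 1.23 CPM with esculetin. Wnt2, an endothelial ligand of the liver, had 2.57 ± 0.626 and 2.89 ± 0.831 CPM. Wnt9b, the ligand of central vein endothelium, had 0.378 ± 0.153 and 0.390 ± 0.134 CPM (SD, n = 3 for each gene and group). Their log2 fold changes were 0.22, 0.17 and 0.039 with standard errors of 0.25, 0.27 and 0.51. Over the alternative fits they ran from 0.0047 to 0.36 for Rspo3, -0.084 to 0.37 for Wnt2 and -0.25 to 0.29 for Wnt9b. A difference of the size found in Rnf43 or Axin2 was not detectable at this depth in Wnt9b. Wnt2b, a ligand, had the highest log2 fold change of this list (0.84), from 0.340, 0.614 and 1.09 CPM with vehicle and 0.964, 1.47 and 1.22 CPM with esculetin, with overlapping groups and without passing the thresholds. Wnt5b and Wls, the carrier that Wnt secretion needs, were the other ligand-list genes of highest level, with log2 fold changes of 0.14 each.

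Among the receptors 12 of 17 genes were tested. Fzd6, a Frizzled receptor, had 3.00, 5.06 and 3.94 CPM with vehicle and 2.43, 2.68 and 2.57 CPM with esculetin, without overlap. Its log2 fold change was -0.65 with a standard error of 0.22, with edgeR giving unadjusted p = 0.0161 and adjusted p = 0.302 (Benjamini-Hochberg). Fzd6 was not called without vehicle replicate 2 (log2 fold change -0.43), and its adjusted p-value was above 0.05. The most abundant receptors per length were Lgr4, the R-spondin receptor of hepatocytes, Lrp6, the Wnt co-receptor, and Fzd4. Their log2 fold changes were -0.069 (standard error 0.072), -0.097 (0.099) and 0.0019 (0.14).

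Of the genes that act between receptor and nucleus, 17 of 17 were tested in the destruction complex list and 0 were called. Btrc, the F-box protein that ubiquitinates beta-catenin, had a log2 fold change of -0.43 (by edgeR, unadjusted p = 0.00564, adjusted p = 0.233), and Usp34, a deubiquitinase of axin, -0.32 (unadjusted p = 0.00247, adjusted p = 0.191). Both had groups that did not overlap and fold changes under 1.5. The genes of highest level, Csnk1a1, Tnks2 and Gsk3a, had log2 fold changes of -0.11, -0.058 and -0.016. Ctnnb1, beta-catenin itself, had 140 ± 10.1 CPM with vehicle and 131 ± 3.41 CPM with esculetin (SD, n = 3), and a log2 fold change of -0.10 (standard error 0.078). Tcf7l2, the main TCF factor of hepatocytes, had -0.0043 (standard error 0.14). Of the nuclear list, 12 of 14 genes were tested and 0 called, and the abundant Tle1 and Pygo2 had log2 fold changes of -0.012 and 0.17.

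Of 15 other Wnt inhibitors 5 had enough counts to be tested and 0 were called. Wif1, a secreted inhibitor that binds Wnt ligands, was too low to be tested, with 6, 22 and 32 counts with vehicle and 0, 6 and 0 with esculetin. Its lowest vehicle library and its highest esculetin library both had 6 counts, and the mean CPM with esculetin was 8.45% of that with vehicle. Dkk4, a secreted antagonist of the LRP co-receptors, was also not tested, with 0, 22 and 16 counts with vehicle and 2, 4 and 0 with esculetin. Dkk3, a secreted protein of the Dickkopf family and the tested gene of this list with the highest log2 fold change, had 0.885, 0.982 and 1.17 CPM with vehicle and 0.871, 1.44 and 2.63 CPM with esculetin. The groups overlapped, and the log2 fold change of 0.70 (0.20 to 1.01 over the alternative fits) did not pass the thresholds. Wif1, Dkk4 and Dkk3 were picked out with their values in view, and for the first 2 their counts are a description without a test. Notum, a secreted enzyme that inactivates Wnt and is made by pericentral hepatocytes, had 11.4, 11.3 and 12.0 CPM with vehicle and 9.02, 12.3 and 8.78 CPM with esculetin, and the log2 fold change was -0.20 with a standard error of 0.15. Kremen1 and Frzb had -0.29 and -0.11. Of 12 further targets 8 were tested and 0 called. Nkd1, an intracellular feedback inhibitor, had 3.27, 3.04 and 3.43 CPM with vehicle and 2.39, 4.47 and 3.49 CPM with esculetin, a log2 fold change of 0.092 (standard error 0.24). The intervals are wide for such low genes, and Sp5, a Wnt-induced transcription factor, had at most 0.560 CPM in any library (log2 fold change -0.32, standard error 0.81). Ccnd1, Cd44 and Zbtb16 had log2 fold changes of -0.065, 0.091 and -0.15, the last with a standard error of 0.51. The sign of each turned over the alternative fits, with ranges of -0.12 to 0.029, -0.014 to 0.24 and -0.57 to 0.76. Genes on the opposite strand overlap 48.4% of the exon length of Ccnd1, 38.3% of Notum, 30.9% of Cyp2a5, 29.6% of Gsk3a and 21.8% of Wnt5b, so the values of these genes are uncertain without a stated strand setting. Whether these genes differ from Rnf43 and Axin2 in their response was not tested.

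**Figure D4:**
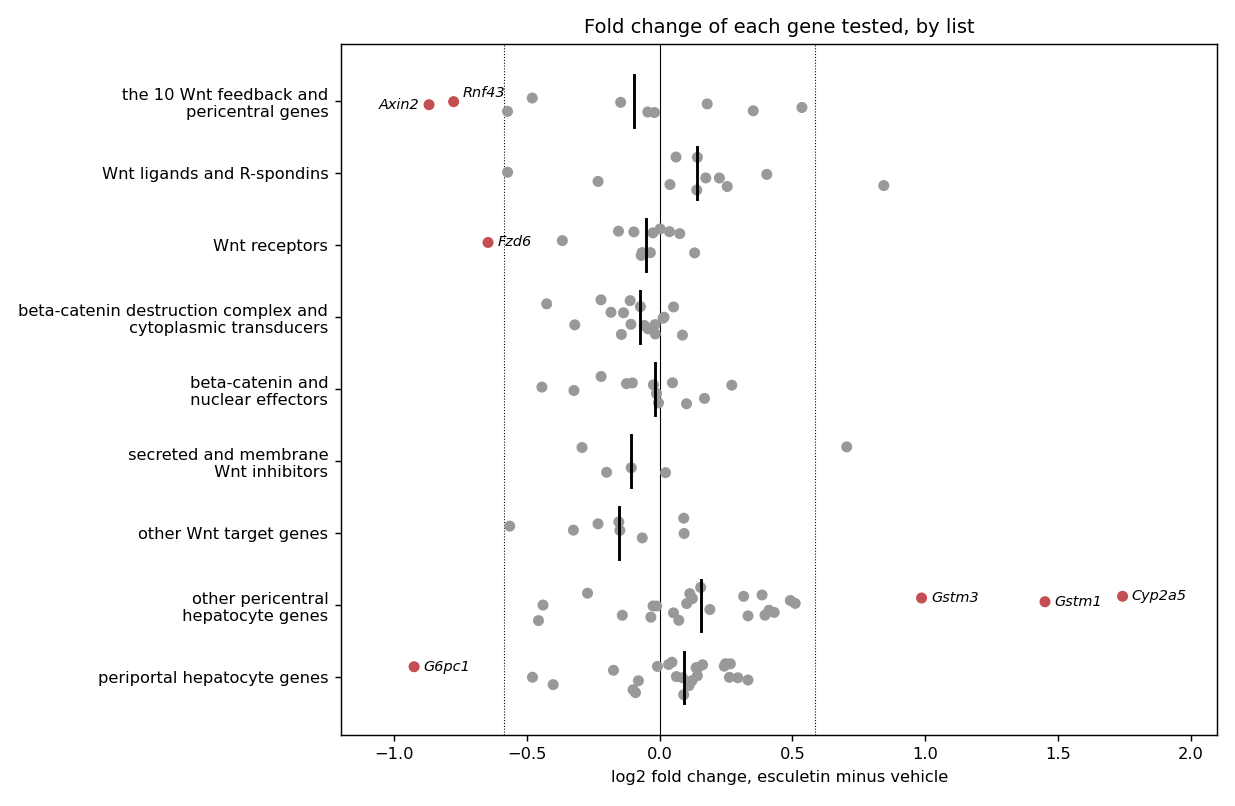
Log2 fold change (esculetin minus vehicle) of each gene tested, by list. Red points with names passed both thresholds, grey points did not, vertical bars are list medians and dotted lines mark a fold change of 1.5. Rnf43 and Axin2 lie at -0.78 and -0.87, and the called genes of the other pericentral list lie above 0.

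A list of 25 other pericentral hepatocyte genes was made with earlier results of these data known, among them the rises of Cyp2a5 and Gstm1, so its counts and median describe these genes and do not answer whether zonal genes in general moved. All 25 were tested and 3 were called (Cyp2a5, Gstm1 and Gstm3), all higher, against 3.13% of all genes tested. An unadjusted p-value under 0.05 was reached by 11 higher genes and 1 lower gene, against 11.9% of all genes tested, and an adjusted one by 2 genes, against 0.0416%. The groups did not overlap in 12 of the 25, against 17.4% of all genes tested. The median log2 fold change was 0.15. Cyp2a5, the coumarin hydroxylase, rose from 379 ± 40.5 to 1269.5 ± 114 CPM, and Gstm1, a glutathione transferase, from 369 ± 66.8 to 1010 ± 151 CPM (SD, n = 3). Their log2 fold changes were 1.74 (adjusted p = 0.000267) and 1.45 (adjusted p = 0.00669 by edgeR). Gstm3 had a log2 fold change of 0.99 (by edgeR, unadjusted p = 0.000359, adjusted p = 0.132). These genes have close paralogs among which reads can be split. Genes of the list with the highest level, Rgn and Slco1b2, had log2 fold changes of 0.15 and 0.072. Cyp1a2, a pericentral P450 that depends on beta-catenin, had 507 ± 48.6 CPM with vehicle and 498 ± 71.0 CPM with esculetin (log2 fold change -0.025, standard error 0.11). The 1 lower gene with an unadjusted p-value under 0.05 was Avpr1a, the vasopressin receptor of pericentral hepatocytes, at 17.3, 17.2 and 16.9 CPM with vehicle and 12.9, 11.9 and 12.6 CPM with esculetin. Its log2 fold change was -0.46 (by edgeR, unadjusted p = 0.000771, adjusted p = 0.136), under the fold threshold, and it was named after its value was seen.

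Periportal hepatocyte genes, from the opposite end of the lobule, gave 1 called gene of 25 tested, against 3.13% of all genes tested. An unadjusted p-value under 0.05 was reached by 2 higher and 2 lower genes, against 11.9% of all genes tested, and the groups did not overlap in 7 of the 25, against 17.4%. The called gene was G6pc1, the catalytic subunit of glucose-6-phosphatase, which had 923, 599 and 478 CPM with vehicle and 256, 437 and 362 CPM with esculetin. Every esculetin library was below every vehicle library, and the log2 fold change was -0.92 with a standard error of 0.24 (by edgeR, unadjusted p = 0.00357, adjusted p = 0.204). The median log2 fold change of the list was 0.091. Cyp2f2, a periportal P450, had 837 ± 100.4 and 781 ± 41.5 CPM (SD, n = 3), a log2 fold change of -0.10 (standard error 0.099), and the abundant Pck1, Cps1 and Hpd had 0.12, 0.14 and 0.26. The summed level of the periportal list was 24442 to 27267 CPM with vehicle and 26783 to 28868 CPM with esculetin, and that of the other pericentral list 8432 to 9933 CPM and 11163 to 11863 CPM, the latter with Cyp2a5 and Gstm1 included.

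The genes whose pattern was most like that of Rnf43 over the 6 libraries, among 7235 genes with a mean of at least 10 CPM, were Dnmt3a (Pearson r of log2 CPM 0.994), Ddhd1 (0.988), Krit1 (0.984), Pmm2 (0.982) and Anpep (0.982). Their log2 fold changes lay between -0.41 and -0.13, smaller than that of Rnf43, since r is blind to the size of a difference. Those most like Glul were Mmab (0.995), Aqr (0.988), Helz (0.982), Lrrc8d (0.980) and Arhgef1 (0.978). With 6 libraries in 2 groups and so many genes, coefficients of this size are a description only, and the libraries share their group.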

How the data were processed

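Paired-end reads of mouse liver were aligned by the authors with HISAT2 2.2.1 to GRCm39 and counted with featureCounts, and the deposited values are raw whole-number counts per gene. The count columns do not carry the sample titles and were assigned by the diet or dose and the replicate number in their names. The labels name both GRCm39 and mm10. The annotation release, the strand setting and the handling of reads shared by genes are not given in the sources used here. Of 55357 identifiers, 54749 matched GENCODE vM39, the source of symbols, positions and exon lengths. Counts were filtered with filterByExpr, TMM-normalized and fitted over all genes in edgeR 4.0.16 (R 4.3.3) by quasi-likelihood, with Benjamini-Hochberg adjustment. Each standard error was obtained from the fold change and its F statistic. P-values under 0.05 and a fold change over 1.5, the thresholds in the study's methods, called a gene. Alternatives were DESeq2 1.42.0, limma-voom (3.58.1), other normalizations and filters, each library left out and a replicate block. The fit was tested on simulated data. P-values measure the spread between pools of 2 mice. Genes and lists were chosen with earlier results of these data known. Named genes were the 10 genes, 13 key pathway genes, and from each list up to 8 called genes and the 3 of highest TPM, with the 5 genes most like Rnf43 and Glul. Avpr1a, Btrc, Usp34, Wif1, Dkk4, Dkk3, Wnt2b and the called cell type markers were named after their values were seen.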

Additional observations from a re-analysis of the deposited data

How the results depend on the processing

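Rnf43 and Axin2 were called under each alternative tried, which is no independent support since the genes were chosen with this comparison known, and no alternative that used all 6 libraries changed the direction of any of the 10 genes. The number of the 10 genes called was 2, and 3 with total counts, where Tbx3 was added. Omitting a library gave 2 to 4, the most without vehicle replicate 1, where Oat and Lgr5 were added. Leaving out 1 library turned the sign of Slc1a2 (-0.094 to 0.078) and of Znrf3 (-0.19 to 0.049). The number of further Wnt pathway genes called was 1, 2 with limma-voom (Wnt2b added) and 5 without the filter on low counts (Wnt2b and Dkk3, higher, and Dkk4 and Wif1, lower, added, the last 2 being too low for the filter). Omitting a library gave 0 to 4, with 4 without vehicle replicate 1, 3 without esculetin replicate 1 or 2, 2 without vehicle replicate 3 or esculetin replicate 3 and 0 without vehicle replicate 2. Of these added calls Wif1 (4 fits) and Dkk4 (2 fits) passed the filter only through the vehicle libraries and are no evidence of a difference, and the others were Wnt2b, Dkk3 and Myc in 1 fit each. Of the other pericentral genes 3 to 5 were called when 1 library was left out, the 5 without vehicle replicate 1, all higher, and 4 without esculetin replicate 1, of which 1 was lower (Slc1a4), and of the periportal genes 1 each time. Over all genes 452 were called, 776 without the filter, and 411 to 588 with 1 library left out. The cause of these changes was not tested. With the replicate block 399 genes were called over all genes, and the counts of the lists stayed at 2, 1, 3 and 1, so the block changed no other call among them. Each library has its own mice, so the numbers do not pair libraries by mouse. Libraries that share a number deviated from their group means with correlations of -0.069 to 0.0027. None of the 6 libraries correlated best with its own number (0 of 6). With 6 libraries these correlations cannot decide whether the numbers pair the libraries in another way. At these depths 3 counts are 0.0859 to 0.107 CPM. Genes of few counts and large standard errors, such as Rhbg and Sp5, could show only large differences.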
